A study of Homo sapiens with 12 samples.

Results

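Antisense-named RNA genes carry the name of a protein-coding neighbour with the suffix -AS and a digit, and 143 of them were measured here after transcription was blocked in Ewing sarcoma cells. They were chosen by symbol and by a mean of at least 10 raw counts over the 12 libraries, with OIP5-AS1 left out, so the level of each gene, averaged over all times, entered the choice. The count table lists 26334 symbols, of which 979 have an antisense name; 370 of these 979 had no count in any library, and the 143 genes are part of 12032 genes that reached the same minimum. The cells carry the label shA673-1c, a form of A673, which is an established cell line from a Ewing sarcoma, and were grown in blasticidin and zeocin. All were given 5 µM actinomycin D, for 0, 1, 2 or 4 h, with 3 biological replicates at each time, and the 0 h libraries served as the starting level. Poly(A) RNA was sequenced from stranded libraries, so a transcript that lost its tail left the measurement. What the prefix and suffix of the line's label stand for is not given in the sources used here, and all 12 libraries come from the same cells.

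Actinomycin D intercalates into DNA and stops RNA polymerases, so that RNA made before the block is followed as it decays. Natural antisense transcripts are long noncoding RNAs transcribed from the strand opposite a gene. Some start near the sense gene's own promoter and run away from it (head to head), others run into its 3′ end (tail to tail) or lie inside it. Several are known to pair with the sense mRNA or to act on its chromatin, and for many no function is known. Unstable mRNAs such as those of immediate early transcription factors often carry AU-rich elements built from the pentamer AUUUA, written ATTTA in DNA letters.

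Total counts ranged from 9147018 to 11194705 per library, and the 143 genes together took 0.152% to 0.175% of them. Their mean counts had a median of 34.3, and 62 of the 143 stayed below 30, 25 reached 100, and LRRC75A-AS1 led with 6448. The genes just inside the minimum were NRSN2-AS1 with a mean of 11.2 counts, MIF-AS1 with 10.7, THAP7-AS1 and MZF1-AS1 with 10.2 each, and KDM4A-AS1 at the limit. Just outside were PSMD6-AS2 with 9.83, MMP25-AS1 with 9.75, LPP-AS2 with 9.67, FOXD3-AS1 with 9.58 and GNAS-AS1 with 9.5 mean counts. Since the minimum was taken over all times, 10 of the 143 genes fell under it at 1 or more times, 2 of them at 0 h and 7 at 4 h. For genes this close to the minimum a change in time can decide the choice: THAP7-AS1, MZF1-AS1 and KDM4A-AS1 reached it only through their highest time, MZF1-AS1 through 0 h (14.3 mean counts at 0 h, 9.67 at 1 h, 10.7 at 2 h and 6 at 4 h), and of these 3 only MZF1-AS1 is among the genes counted as falling. Well-known antisense RNAs that did not reach it were ZEB1-AS1 with a mean of 6.17 counts, WT1-AS with 1.58, HOXB-AS3 with 0.167, GAS6-AS1 with 0.0833, and CDKN2B-AS1, HOXA-AS2, HOXA-AS3 and RBM5-AS1, which had no count. Of the Ewing sarcoma markers, NR0B1 (69 to 451 counts), STEAP1 (499 to 708), PRKCB (1015 to 1789), CCND1 (15630 to 20886), LIPI, PPP1R1A, FLI1 and NKX2-2 had counts in every library, while CD99 was listed at 0 throughout. Markers of blood, endothelial, epithelial, liver and heart muscle cells had 0 to 6 counts. MYC mRNA, which is short-lived, checked the time labels and fell from 134.5 to 8.37 CPM (counts per 1000000 scaled counts).

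The name does not describe 1 kind of gene. By symbol 109 of the 143 were found in GENCODE 44 on GRCh38, 29 more by an older name, and 5 were not found. Of the 5, SVIL-AS1, LHX4-AS1 and NPPA-AS1 are in RefSeq alone, while RefSeq lists HNRNPU-AS1 as an older name of HNRNPU and TNRC6C-AS1 as one of TMC6, which are protein-coding genes, so what was counted under these 2 symbols is not clear. Of the 138 found, 131 were annotated as long noncoding RNA, 4 as transcribed pseudogenes and 3 as protein-coding, so the label noncoding does not hold for MMP24-AS1 (now MMP24OS), NCBP2-AS2 (now NCBP2AS2) and TOPORS-AS1 (now SMIM27). RefSeq now lists 18 as divergent transcripts with the suffix -DT. Relative to the sense gene, 48 lay head to head with overlap, 24 head to head without overlap, 29 tail to tail, 19 inside the sense gene and 16 across it, and 7 could not be placed. Exons of both genes shared bases in 102 of 136 cases, and 49 antisense starts lay within 1000 bases of the sense start. The median transcript had 1767 bases in 3 exons. Whether the deposited counts used strand is not given in the sources used here, and where exons overlap, reads of the antisense and the sense gene cannot be told apart without it.

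The last 300 bases of the main (Ensembl canonical) transcript held the pentamer ATTTA in 41 of 136 antisense-named genes (30.2%), against 47.5% of 11174 tested genes searched the same way on the sense strand. It was present in 6 of 24 genes that fell by the test described further on and in 6 of 21 that rose (25% and 28.6%). The longer TTATTTATT, which contains the pentamer, occurred in 2 of the 136 (1.47%) and in 2.04% of the tested genes. Of the 8 genes with the steepest fall and the 8 with the steepest rise, NPPA-AS1, which rose, has no GENCODE 44 transcript and was not searched. Among the others, the following 4 held the pentamer. For each, 30 bases of the transcript are shown from GENCODE 44, 5′ to 3′, with the pentamer in capitals. They let the 3 genes that fell be read beside the 1 that rose.
CARD8-AS1: gtatttcaaATTTAttccaatattttggaa
MAPKAPK5-AS1: cctcaaagtaaaATTTAagtgtggctctgt
MBNL1-AS1: acatcttgggatATTTAtacttaccaaatc
SLFNL1-AS1: tcattagtttttATTTAtgttaaatttctt
CARD8-AS1, MAPKAPK5-AS1 and MBNL1-AS1 fell and SLFNL1-AS1 rose, so the pentamer was found with either direction. The pentamer density over whole transcripts had a median of 0.886 per 1000 bases in the antisense-named genes and of 1.08 in all tested genes, and the GC content a median of 50.7% and 48.0%.

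To ask how fast each RNA was lost, counts were scaled by TMM, which assumes that most genes keep their share, and a straight line in time was fitted to each gene with edgeR's quasi-likelihood test, adjusted by the Benjamini-Hochberg method over all 12032 genes. The slope is the log2 change per h, and for genes that fell the half-life is −1 divided by it. At an adjusted p below 0.05, 25 of the 143 fell, 22 rose and 96 did not pass; without adjustment 53 had a p below that value. Among all tested genes 32.1% fell and 30.7% rose, against 17.5% and 15.4% of the antisense-named genes. The median slope was −0.0024 for the antisense-named genes and 0.0093 for all tested genes. In single replicates slopes were taken by least squares on log2 CPM with 0.5 added, another measure than the edgeR slope. Their median over the antisense-named genes lay between −0.019 and −0.0048 (SD 0.0083, n = 3). The table holds no spike-in, so rises, falls and half-lives are relative to other RNAs. Scaled to GAPDH and ACTB mRNA instead of TMM, 70 genes fell and 0 rose (2 had an unadjusted edgeR p below 0.05 upward). Among all tested genes 64.2% fell and 0.931% rose on that scale, with a median slope of −0.13. With library totals 39 fell and 12 rose, against 39.1% and 18.6% of all tested genes.

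Few counts went with few calls. Among antisense-named genes with mean counts from 10 to below 30, 9.68% fell, against 23% of all tested genes in that range. From 30 to below 100 counts the shares were 21.4% and 35.6%, and from 100 upward 28% (7 of 25 genes) and 32.7%. In these 3 ranges the antisense-named genes that rose made up 9.68%, 17.9% and 24%, and all tested genes 10.8%, 15.1% and 37%. The SE of a slope had a median of 0.075, 0.055 and 0.031 in these 3 ranges for antisense-named genes, and of 0.082, 0.053 and 0.024 for all tested genes. A slow change of a rare RNA could thus go undetected at this depth. Why a smaller share of antisense-named genes than of all tested genes fell within a range was not tested.

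Other noncoding groups were fitted in the same way. Of 74 LINC-named genes, 11 fell and 10 rose, with a median slope of 0.013. Of 19 snoRNA host genes named SNHG or GAS5, 10 fell and 2 rose, with a median slope of −0.11. Of 7 miRNA host genes 3 fell and 0 rose, and of 4 genes with the suffix -IT, for intronic transcripts, 0 fell and 2 rose. These counts are descriptions, and the groups differ in level: the median of the mean counts was 31.7 for the LINC-named genes and 227 for the snoRNA hosts.

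CARD8-AS1 was lost fastest. It starts 271 bases from CARD8, which encodes an inflammasome sensor, and runs the other way (chr19:48255675-48258199, plus strand, GRCh38). At 0 h it had 13.8, 12.5 and 14 CPM, at 1 h 10.4, 8.15 and 8.81, at 2 h 6.16, 7.19 and 6.49, and at 4 h 1.54, 0.774 and 1.23. The libraries of each time lay below those of the time before without overlap, and 8.7% was left at 4 h. The slope was −0.78 ± 0.069 (SE, 12 libraries; edgeR adjusted p = 7.56e-08) and the half-life 1.28 h, the only one under 2 h among the antisense-named genes. In the order of slopes over all 12032 genes it stood at place 139 from the steepest fall.

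MAPKAPK5-AS1 followed, an RNA that starts 889 bases from MAPKAPK5, the gene of a p38-activated kinase (chr12:111839758-111842902, minus strand). It had 13.8, 17.2 and 15.4 CPM at 0 h, 13.1, 12.4 and 12.6 at 1 h, 8.25, 7.6 and 10.3 at 2 h, and 5.45, 4.74 and 4.93 at 4 h. Here too the libraries of each time lay below those of the time before. The slope was −0.41 ± 0.036 (edgeR adjusted p = 5.7e-08), which gives a half-life of 2.42 h.

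NFYC-AS1, beside the gene of the NF-Y subunit C (chr1:40690380-40692074), took another course. It had 2.46, 3.09 and 3.2 CPM at 0 h, 0.862, 1.28 and 1.54 at 1 h, 0.993, 1.52 and 0.871 at 2 h, and 0.948, 1.06 and 1.01 at 4 h. The 0 h libraries stood above all later ones, and the later times overlapped each other. It was the 1 antisense-named gene lower at 1 h than at 0 h (log2 change −1.24 ± 0.26, edgeR adjusted p = 0.0223), where 2.24% of all tested genes were lower. Its fitted half-life of 2.55 h comes from a line through a course that was not straight, and over 1, 2 and 4 h alone the slope was −0.10 (edgeR adjusted p = 0.499).

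The other steep falls were slower. MBNL1-AS1, inside the gene of a muscleblind splicing regulator (chr3:152245262-152269590), went from 3.02 ± 0.31 CPM at 0 h to 1.29 ± 0.46 at 4 h (SD, n = 3). MAFG-AS1 is an older name of MILIP, whose start lies 94 bases from that of the small MAF transcription factor gene MAFG, but RefSeq now also gives the symbol to another gene, and which of them was counted is not given in the sources used here; here it was placed as MILIP. It went from 4.53 ± 0.84 to 1.83 ± 0.82 CPM. TMCC1-AS1, 100 bases from the start of TMCC1, went from 4.00 ± 0.92 to 1.84 ± 0.43 CPM. In all 3 the 4 h libraries lay below the 0 h libraries, with half-lives of 2.95, 3.13 and 3.38 h (edgeR adjusted p = 0.000203, 0.0022 and 0.00122).

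MCM3AP-AS1, tail to tail with the gene of the mRNA export factor MCM3AP, had 6.49, 4.15 and 7.99 CPM at 0 h, 3.54, 2.55 and 5.54 at 1 h, 3.48, 1.82 and 3.77 at 2 h, and 2.61, 1.94 and 4.15 at 4 h. Replicate 3 was highest and replicate 2 lowest at every time, and the 4 h and 0 h libraries touched at 4.15 CPM in replicates 3 and 2 without crossing. Its slope was −0.28 ± 0.089 (edgeR adjusted p = 0.0117, and 0.000238 with the replicate number as a block; without replicate 1 it was 0.0839). A1BG-AS1, beside the gene of a plasma glycoprotein, went from 5.30 ± 0.44 to 2.66 ± 0.95 CPM with a slope of −0.26 ± 0.076 (edgeR adjusted p = 0.0063, and 0.0654 without replicate 3). The half-lives were 3.57 and 3.8 h.

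Over the 25 genes that fell, half-lives ran from 1.28 to 16.0 h with a median of 4.28 h, and the median over all tested genes that fell was 4.35 h. Under 4 h there were 10. Replicates moved down from 0 to 4 h in all 3 pairs of libraries for each of the 25. The slow end held the abundant PROSER2-AS1 (12.4 h), WAC-AS1 (15.3 h) and FEZF1-AS1 (16.0 h), half-lives well beyond the 4 h that were sampled. All these half-lives are relative to TMM scaling. Scaled to GAPDH and ACTB, slopes lay lower, and slow falls such as these would have shorter half-lives.

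**Figure D1:**
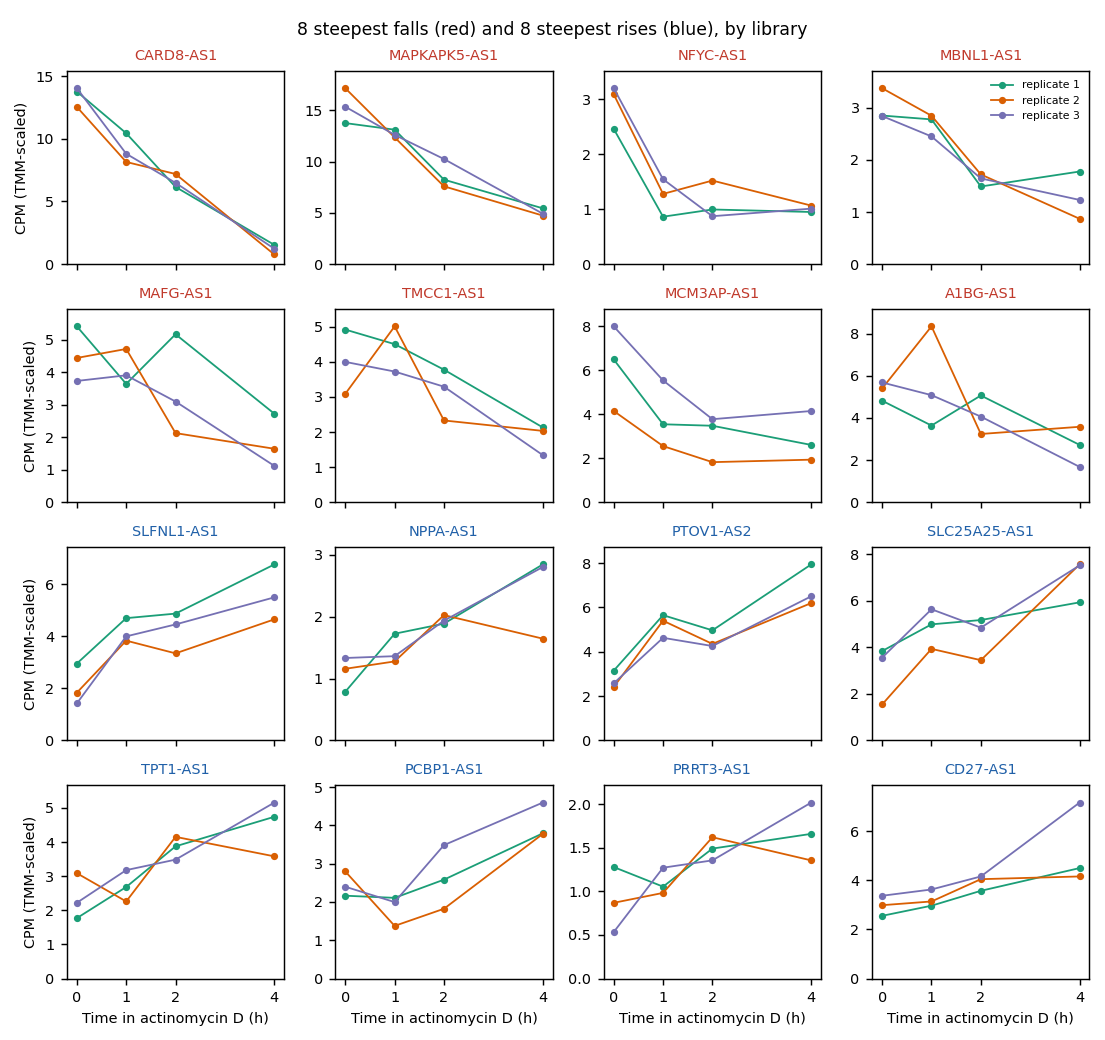
TMM-scaled CPM (vertical axes, from 0) against time in actinomycin D in h (horizontal axes) for the 8 steepest falls (upper 2 rows, red titles) and the 8 steepest rises (lower 2 rows, blue titles), with 1 line for each of 3 replicates. CARD8-AS1 falls through all times to 0.774 to 1.54 CPM, NFYC-AS1 drops within 1 h and then stays between 0.862 and 1.54 CPM, and the risers, none of which passes when scaled to GAPDH and ACTB, end at most near 8 CPM.

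Of the 22 genes that rose relative to TMM scaling, 20 moved up from 0 to 4 h in all 3 replicates, and none held its call with GAPDH and ACTB as the scale. SLFNL1-AS1, which spans a Schlafen-like gene with 0 to 2 counts (chr1:41014590-41043890, plus strand), had the steepest slope. It had 2.95, 1.83 and 1.42 CPM at 0 h, 4.69, 3.83 and 3.99 at 1 h, 4.87, 3.34 and 4.45 at 2 h, and 6.75, 4.65 and 5.49 at 4 h. All later libraries stood above the 0 h libraries. The slope was 0.29 ± 0.070 (edgeR adjusted p = 0.00193 with TMM, and 0.0662 scaled to GAPDH and ACTB, where it was 0.15).

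PTOV1-AS2, inside PTOV1 (chr19:49856970-49859289, minus strand), was the 1 antisense-named gene higher at 1 h than at 0 h, where 0.349% of all tested genes were higher. It had 3.15, 2.41 and 2.58 CPM at 0 h, 5.65, 5.4 and 4.63 at 1 h, 4.97, 4.35 and 4.26 at 2 h, and 7.94, 6.19 and 6.5 at 4 h. The 1 h and 2 h libraries overlapped each other, above 0 h and below 4 h. The log2 change at 1 h was 0.94 ± 0.18 (edgeR adjusted p = 0.0118), and with the replicate number as a block 5 antisense-named genes were lower and 5 higher at 1 h, against 10.5% and 6.18% of all genes. Without the block the 1 h calls did not survive the loss of replicates: leaving out replicate 1 or replicate 2 left 0 lower and 0 higher (edgeR, with 4 and 7 lower and 4 and 5 higher at an unadjusted p below 0.05), and leaving out replicate 3 left 1 lower and 0 higher (5 higher unadjusted).

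SLC25A25-AS1, tail to tail with the gene of a mitochondrial ATP-Mg/phosphate carrier, went from 2.98 ± 1.2 CPM at 0 h to 6.99 ± 0.93 at 4 h, with replicate 2 lowest at 0 h (1.54 CPM). TPT1-AS1, whose start lies 61 bases from that of the translationally controlled tumour protein gene TPT1, went from 2.36 ± 0.67 to 4.49 ± 0.82 CPM. PCBP1-AS1, across the gene of a poly(C)-binding protein, went from 2.45 ± 0.32 to 4.05 ± 0.47 CPM. In all 3 every 4 h library stood above every 0 h library, with slopes of 0.27, 0.24 and 0.23 (edgeR adjusted p = 0.00206, 0.00152 and 0.0071). The call of PCBP1-AS1 was lost without replicate 1 and without replicate 3 (edgeR adjusted p = 0.0522 and 0.0506).

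NPPA-AS1, named for the gene of the atrial natriuretic peptide, which itself had no count, rose from 1.09 ± 0.28 to 2.43 ± 0.68 CPM. PRRT3-AS1 rose from 0.893 ± 0.37 to 1.68 ± 0.33 CPM on 6 to 18 counts per library, and its call was lost without replicate 3 (edgeR adjusted p = 0.215). CD27-AS1, beside the gene of a lymphocyte receptor with 0 to 2 counts, rose from 2.97 ± 0.41 to 5.28 ± 1.6 CPM.

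Between 4 h and 0 h, without a straight line, 25 antisense-named genes were lower and 19 higher by edgeR, where 31.6% and 28.7% of all tested genes were. Scaled to GAPDH and ACTB, 68 were lower and 2 higher, against 63.3% and 0.922% of all tested genes. The 4 h libraries lay below all 0 h libraries for 34 of the 143 and above them for 24, and overlapped for 85; over all tested genes 33% lay below and 30.4% above. With the replicate number as a block in the slope fit, 32 fell and 24 rose, against 34.8% and 36.2% of all tested genes.

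The most abundant antisense-named genes moved little. LRRC75A-AS1, now named SNHG29, is a host of small nucleolar RNAs (chr17:16438767-16480249), and the gene it is named for had 1 to 8 counts. It had 513, 623 and 602 CPM at 0 h, 522, 595 and 584 at 1 h, 582, 681 and 681 at 2 h, and 714, 813 and 778 at 4 h. The 4 h libraries stood above all others, and its slope was 0.11 ± 0.021 with TMM (edgeR adjusted p = 0.00019) but −0.026 scaled to GAPDH and ACTB (edgeR adjusted p = 0.462).

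FGD5-AS1 had 103, 109 and 125 CPM at 0 h, 102, 100 and 116 at 1 h, 106, 102 and 130 at 2 h, and 107, 115 and 125 at 4 h. The times overlapped, and the slope was 0.02 ± 0.023 (edgeR adjusted p = 0.538). FGD5, an endothelial exchange factor gene, had no count in any library. PAX8-AS1 (46.7 ± 1.6 CPM at 0 h, 53.5 ± 1.9 at 4 h) rose with a slope of 0.05 with TMM and had −0.084 scaled to GAPDH and ACTB. FEZF1-AS1 (49.4 ± 1.7 and 43.3 ± 5.3 CPM) fell with a slope of −0.063 ± 0.026. Each of these 2 calls was lost when any 1 replicate was left out (edgeR adjusted p from 0.0506 to 0.0675 for PAX8-AS1 and from 0.0551 to 0.161 for FEZF1-AS1).

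THAP9-AS1 and SVIL-AS1 completed the 6 most abundant, with slopes of −0.058 ± 0.025 (edgeR adjusted p = 0.0528, and 0.0169 with the block) and −0.018 ± 0.022 (edgeR adjusted p = 0.492). Among other antisense RNAs that are often studied, TMPO-AS1, beside the gene of a nuclear lamina protein, fell from 9.14 ± 1.3 to 5.18 ± 1.5 CPM with a half-life of 4.69 h (edgeR adjusted p = 0.00192). PSMA3-AS1, THUMPD3-AS1, TTN-AS1 and ZNRD1-AS1 had slopes between −0.053 and 0.053 with edgeR adjusted p from 0.364 to 0.849.

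Transcript length and exon number were compared with the slope as a description over the 138 genes with an annotated transcript. The median length was 1986 bases for the 25 that fell, 1455 for 21 that rose and 1720 for the rest. Over these 138 genes, which share all libraries, the Spearman rho with the slope was −0.18 for length and 0.33 for exon number. By arrangement, 6 of 24 genes head to head without overlap fell and 3 rose. Among the 48 head to head with overlap 10 fell and 5 rose, and among the 29 tail to tail 4 fell and 6 rose. Of 19 inside the sense gene 2 fell and 2 rose, of 16 across it 3 and 4, and of 7 not placed 0 and 2. Among all tested genes 32.1% fell and 30.7% rose. The counts by arrangement can be read only beside the small group sizes, and no test was made.

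The sense gene was in the table for 141 of the 143, and for 121 it reached the same count minimum. Of the 20 sense genes under the minimum, FGD5 and NPPA had no count, while FGD5-AS1 had a mean of 1129 counts and NPPA-AS1 one of 17.2. In 103 of the 121 pairs the antisense-named gene had fewer counts than its sense gene, with a median of 9.38% of the sense counts. Per 1000 bases of the main transcript, antisense was lower in 89 of 117 pairs with lengths and higher in 28, with a median of 19.3%. The highest antisense to sense ratios per length were 22.8 for THAP9-AS1, 19.8 for TP73-AS1 and 18.1 for TRAF3IP2-AS1.

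To compare decay within a pair, the log2 ratio of antisense to sense counts (0.5 added to each) was followed over time in each library, which needs no scaling between libraries. A falling ratio means that antisense RNA was lost faster than sense RNA and a rising ratio that it was lost more slowly. The slope of the ratio was tested by a two-sided exact permutation test over all 369600 arrangements of the time labels, and p-values were adjusted over the 121 pairs. The ratio fell in 25 pairs, rose in 29 and did not pass in 67, and 61 pairs had an unadjusted p below 0.05. In each of the 54 pairs past the threshold the 3 replicates had the same direction. In 5 of the 121 pairs 1 gene reached the minimum only through its highest time, and the ratio fell in 2 of these 5 and rose in 0. The 29 include TNRC6C-AS1 (ratio slope 0.24), 1 of the symbols whose gene is not clear. With the arrangements kept within replicate numbers the ratio fell in 28 and rose in 31.

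**Figure D2:**
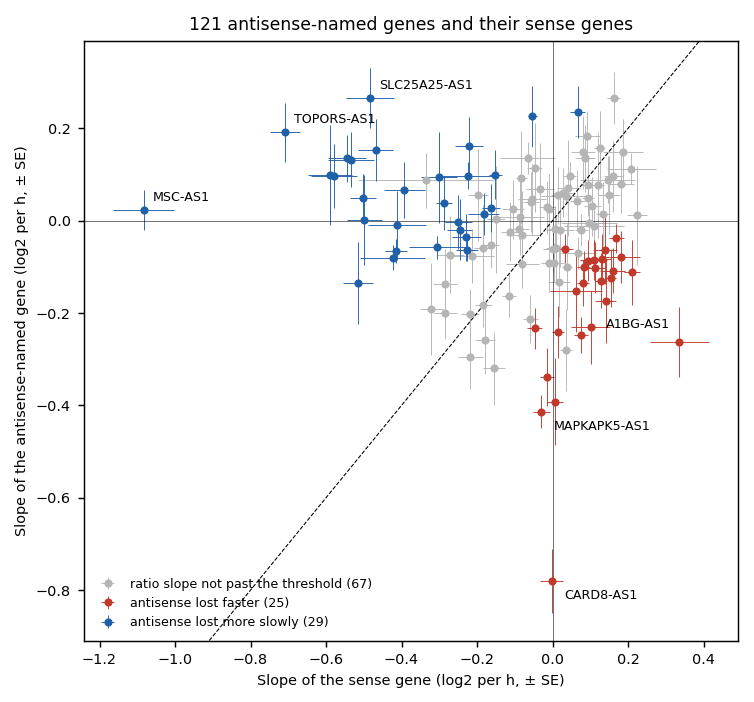
Slope of the antisense-named gene (vertical axis) against that of its sense gene (horizontal axis) in log2 change per h with SE, edgeR with TMM scaling, for 121 pairs; the dashed line marks equal slopes. Red pairs (25, antisense lost faster) lie below the line, mostly near or right of 0 on the sense axis. Blue pairs (29, antisense lost more slowly) lie above it, with sense genes that fell in 28 of the 29. They reach out to MSC-AS1 with its sense slope of −1.08. Colours and slopes come from the same counts.

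Where the ratio rose, the sense gene fell in 28 of the 29 pairs, and the antisense-named gene rose in 7, fell in 3 and did not pass in 19. Where the ratio fell, the antisense-named gene fell in 11 of the 25 pairs and did not pass in 14, and the sense gene rose in 16, fell in 1 and did not pass in 8. These single-gene calls rest on TMM scaling, which the ratio does not use, but both come from the same counts. A ratio rises when the sense gene falls relative to its partner, so these calls describe the pairs and are no separate evidence. Over the 119 distinct sense genes 50 fell and 38 rose (42.0% and 31.9%), where 32.1% and 30.7% of all tested genes did, with a median slope of −0.0098 and mean counts of 417 in the median. In 28 pairs both genes passed the slope test, and in 11 of these their directions were opposite. Across the 121 pairs, which share libraries and scaling, the slopes of the partners had a Pearson r of −0.13 and a Spearman rho of −0.068.

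MSC-AS1 had the steepest rise of the ratio. MSC encodes musculin, a basic helix-loop-helix repressor, and had 16.2, 14.6 and 16.6 CPM at 0 h, 11.9, 11.5 and 12.3 at 1 h, 4.37, 4.15 and 2.52 at 2 h, and 0.711, 0.678 and 0.897 at 4 h. MSC-AS1 had 7.08, 9.26 and 11.1 CPM at 0 h and 9.36, 9.39 and 10.4 at 4 h, with 7.45 to 11.3 between. The mRNA fell without overlap at each step while the antisense times overlapped. Antisense counts went from 57.2% of sense counts at 0 h to 1205% at 4 h, a ratio slope of 1.16 ± 0.095 (exact permutation p = 2.71e-06, the smallest that the arrangements can give, adjusted p = 0.000164).

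TOPORS-AS1, now SMIM27, overlaps the start of TOPORS, the gene of a ubiquitin and SUMO ligase. TOPORS had 52.3, 60.2 and 56.9 CPM at 0 h, 40, 43.3 and 40.2 at 1 h, 20.1, 19.2 and 16.4 at 2 h, and 8.29, 9.87 and 7.84 at 4 h. TOPORS-AS1 had 1.08, 2.12 and 2.31 CPM at 0 h and 3.44, 2.81 and 2.58 at 4 h. At 4 h all libraries lay below those at 0 h for the mRNA and above them for its partner. The antisense share rose from 3.18% to 34.2% of the sense counts, with a ratio slope of 0.91 ± 0.083 (exact permutation, adjusted p = 0.000164). The rise of TOPORS-AS1 itself was called with TMM (slope 0.19) and not without replicate 1, with library totals or with GAPDH and ACTB (edgeR adjusted p = 0.226, 0.0502 and 0.537).

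SLC25A25 mRNA fell from 33.2, 29 and 25.8 CPM at 0 h to 9.72, 8.23 and 7.96 at 4 h while SLC25A25-AS1 rose, and the ratio went from 9.61% to 81%. ZFPM2, the gene of the GATA cofactor FOG2, fell from 7.28, 12 and 11.7 to 2.01, 2.71 and 1.79 CPM beside ZFPM2-AS1 at 5 to 27 counts per library; that ratio rose from 12.5% to 72.8%, and its call was lost without replicate 3 (exact permutation, adjusted p = 0.0989). ZSCAN16, a zinc finger gene, fell from 7.18, 7.23 and 6.48 to 1.54, 1.84 and 1.34 CPM, and ZSCAN16-AS1 went from 58.6% to 341% of it. GATA2, the gene of a haematopoietic transcription factor, fell from 24.1, 25.6 and 18.3 to 6.52, 5.42 and 4.37 CPM, and GATA2-AS1 went from 12% to 68.5% of it. Their ratio slopes were 0.75, 0.68, 0.67 and 0.66, and in all 4 pairs the sense libraries at 4 h lay below those at 0 h.

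In the other direction, CARD8-AS1 fell from 14.6% of CARD8 counts at 0 h to 1.31% at 4 h. CARD8 itself had 88, 85 and 105 CPM at 0 h and 85.8, 81.7 and 107 at 4 h, so its times overlapped (slope −0.0027, edgeR adjusted p = 0.942). The ratio slope was −0.88 ± 0.089 (exact permutation, adjusted p = 0.000196). MAPKAPK5-AS1 fell from 35.7% to 13% of MAPKAPK5, which had 43.2, 44.5 and 41.8 CPM at 0 h and 42.1, 42.9 and 33.3 at 4 h. The ratio slope was −0.38 ± 0.041 (exact permutation, adjusted p = 0.000164). The 4 h and 0 h libraries of MAPKAPK5 overlapped, with 1 library at 4 h below all others (slope −0.029, edgeR adjusted p = 0.275).

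The pair of A1BG-AS1 is a description: A1BG had a mean of 11.2 counts and reached the minimum only through 4 h (6, 11 and 8 counts at 0 h, 15, 15 and 20 at 4 h), so its rise helped to choose it. A1BG-AS1 fell from 657% to 140% of A1BG (0.59, 1.06 and 0.711 CPM at 0 h, 1.78, 1.45 and 2.24 at 4 h), with a ratio slope of −0.61 ± 0.13 (exact permutation, adjusted p = 0.00346; 0.0542 without replicate 1 and 0.08 without replicate 3). NCBP2-AS2 had 18.2, 19 and 14.6 CPM at 0 h, 15.3, 16 and 12.7 at 1 h, 13.1, 15.6 and 12.6 at 2 h, and 8.18, 9.87 and 7.28 at 4 h. NCBP2, the small subunit of the nuclear cap-binding complex, had 102, 123 and 111 CPM at 0 h and 136, 141 and 135 at 4 h. The 4 h libraries lay below the earlier ones for NCBP2-AS2 and above the 0 h libraries for NCBP2, and the ratio went from 15.4% to 6.15% (slope −0.33 ± 0.037, exact permutation, adjusted p = 0.000353).

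CAPN10-AS1 and MZF1-AS1 closed the list of the 6 steepest falls of the ratio, on 7 to 25 and 5 to 16 counts per library. Their ratios went from 12.9% to 4.85% of CAPN10, a calpain gene, and from 30.3% to 10.4% of MZF1, a zinc finger gene. MZF1-AS1 reached the minimum only through its 0 h level, so its fall helped to choose it and is given as a description. Both calls were lost without replicate 2 (exact permutation, adjusted p = 0.164 and 0.105) and without replicate 3 (0.0879 and 0.0695).

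**Figure D3:**
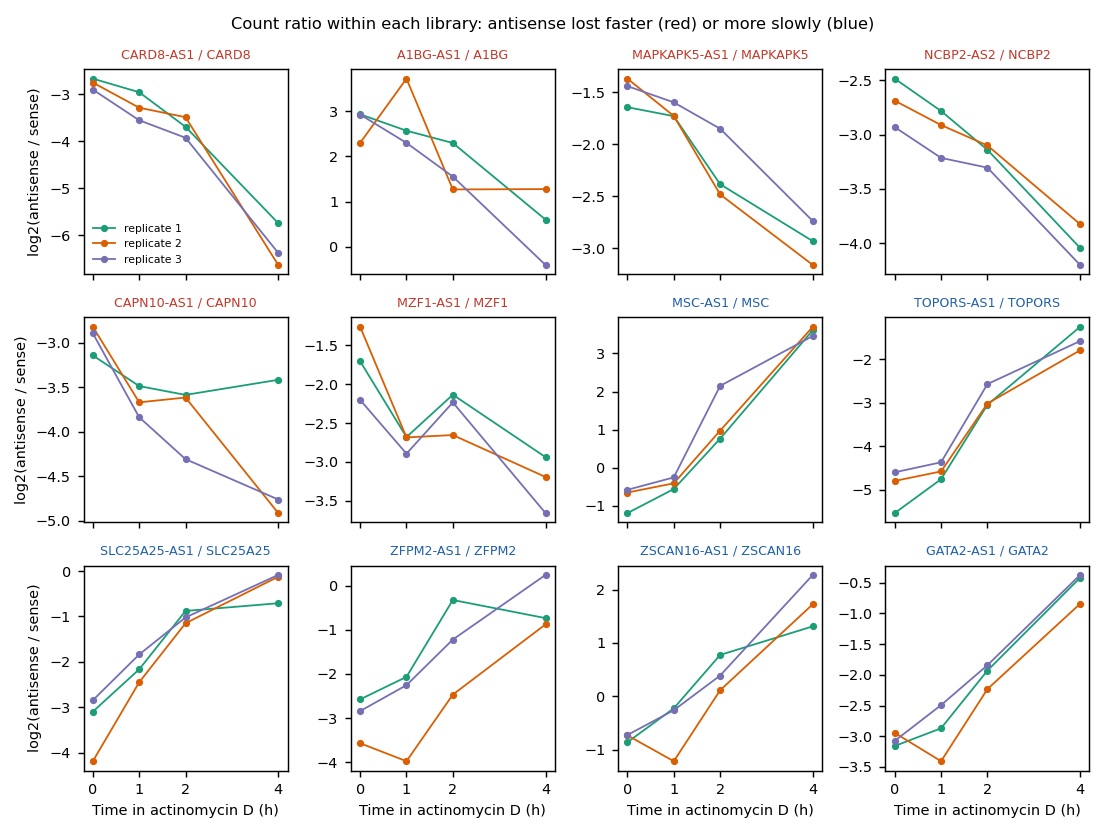
Log2 ratio of antisense to sense counts (0.5 added to each, vertical axes) against time in actinomycin D in h (horizontal axes), 1 line per replicate, for the 6 pairs with the steepest fall (red titles) and the 6 with the steepest rise (blue titles). In MSC-AS1 / MSC the ratio climbs in all 3 replicates, and in CARD8-AS1 / CARD8 it falls in all 3.

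Pairs were also grouped by how the genes lie. Of 23 pairs head to head without overlap the ratio fell in 7 and rose in 6, and of 44 head to head with overlap it fell in 13 and rose in 10. Of 23 tail to tail it fell in 1 and rose in 4, of 17 inside the sense gene in 2 and 4, and of 10 across it in 2 and 4. Where exons shared bases the ratio fell in 18 and rose in 21 of 86 pairs, and where they shared none in 7 and 7 of 31. NCBP2-AS2 with NCBP2 and CAPN10-AS1 with CAPN10 share no exonic base in GENCODE 44. CARD8-AS1 shares 3 with CARD8, MAPKAPK5-AS1 shares 757 with MAPKAPK5, and MSC-AS1 shares 468 with MSC. The part that reads from shared bases have in these ratios was not tested, and the annotation used in counting may differ from this one.

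**Figure D4:**
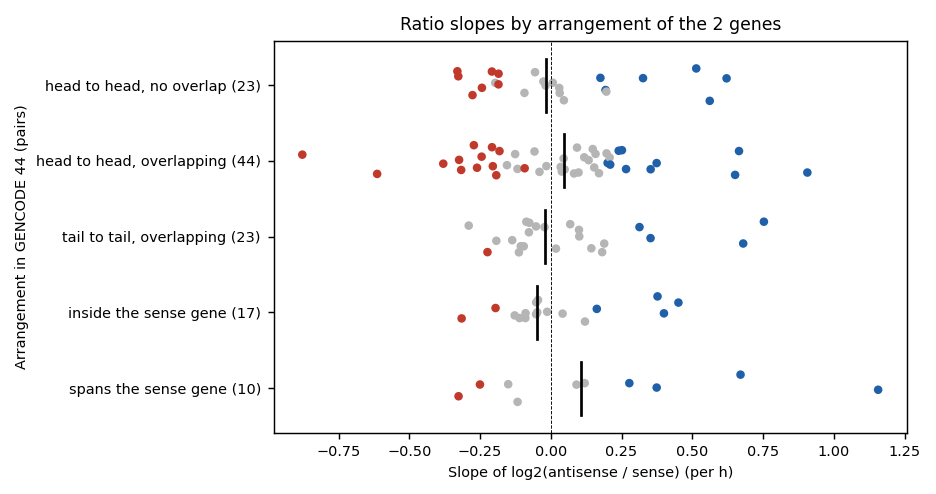
Slope of the log2 antisense to sense ratio per h (horizontal axis) for pairs grouped by the arrangement of the genes in GENCODE 44 (vertical axis, with the number of pairs); red marks pairs where antisense was lost faster, blue those where it was lost more slowly, grey those that did not pass, and the black bar the median. Falls and rises occur in each group, with 1 fall among the 23 tail-to-tail pairs.

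In RefSeq (GRCh38.p14) 43 pairs had a start window, 250 bases before to 50 after the start, for both genes, and in 16 the sense start lay inside the antisense window. Of these 16 the ratio fell in 2, rose in 4 and did not pass in 10. The GC content of the 16 windows had a median of 68.8%, against 57.7% over 22114 windows of all genes. Antisense windows with the sense start outside ran from 31% (PLCE1-AS1) to 77.3% (MCM3AP-AS1), so a high GC content was not particular to the 16. The windows of a pair whose ratio fell and of a pair whose ratio rose are shown, chosen after the values were seen, because in RefSeq both have starts that point away from each other across a short stretch. GENCODE 44 places these starts differently: it puts those of NCBP2-AS2 and NCBP2 80 bases apart, and those of ZBED5-AS1 and ZBED5 617 bases apart with 618 exonic bases shared. The capitals mark the bases between the RefSeq start of the sense gene and that of the antisense-named gene. NCBP2-AS2 is given from chr3:196942424-196942723 and ZBED5-AS1 from chr11:10857967-10858266, both on the plus strand, with 146 and 164 bases between the starts.
NCBP2-AS2: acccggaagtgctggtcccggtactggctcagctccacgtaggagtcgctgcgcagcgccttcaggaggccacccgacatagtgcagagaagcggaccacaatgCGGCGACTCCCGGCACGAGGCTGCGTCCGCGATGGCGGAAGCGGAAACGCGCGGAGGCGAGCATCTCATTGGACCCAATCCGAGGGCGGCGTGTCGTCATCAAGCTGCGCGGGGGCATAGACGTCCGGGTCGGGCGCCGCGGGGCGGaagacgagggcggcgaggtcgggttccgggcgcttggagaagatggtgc
ZBED5-AS1: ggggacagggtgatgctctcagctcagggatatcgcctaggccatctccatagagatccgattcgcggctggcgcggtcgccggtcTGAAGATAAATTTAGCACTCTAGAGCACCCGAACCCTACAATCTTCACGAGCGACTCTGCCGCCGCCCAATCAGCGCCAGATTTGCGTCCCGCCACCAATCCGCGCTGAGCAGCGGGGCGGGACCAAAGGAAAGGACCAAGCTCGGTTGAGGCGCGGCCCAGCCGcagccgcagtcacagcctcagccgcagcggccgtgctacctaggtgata
The ratio of NCBP2-AS2 to NCBP2 fell by 0.33 per h on the log2 scale, and that of ZBED5-AS1 to ZBED5 rose by 0.65 (exact permutation, adjusted p = 0.000353 and 0.000935).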

How the data were processed

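RNA-Seq libraries of shA673-1c cells after 0, 1, 2 and 4 h of 5 µM actinomycin D (3 replicates each) were read from the table of whole-number counts per gene symbol that the authors deposited, with 0 columns left unmatched. The submitters' processing notes name STAR, FastQC and hg19; versions, counting tool, annotation and strand setting are not given in the sources used here. Total counts ranged from 9147018 to 11194705. No other normalization had been applied to the counts, so library scaling was done here.

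The 12032 genes whose counts averaged 10 or more were fitted with edgeR 4.0.16 in R 4.3.3 (TMM, glmQLFit, glmQLFTest), with time as a number for slopes and as 4 groups for 4 h or 1 h against 0 h, and p-values were adjusted by Benjamini-Hochberg over all of them. Antisense to sense ratios were tested in Python 3.11.15 with numpy 2.4.6 and scipy 1.17.1. CPM are TMM-scaled counts per 1000000. The scripts were tested on simulated data.

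The replicate numbers in the labels pair the libraries across times: same-numbered libraries of different times deviated together (correlation of their deviations from the time means 0.300 to 0.612 in 18 pairs). The other 36 pairs had a mean of −0.212. Deviations of 3 libraries from their own mean sum to 0, so this negative mean follows from the positive ones and is no separate evidence. The fit had no block, and the block was an alternative. The alternatives were DESeq2 1.42.0 (Wald test and size factors), library totals, scaling to GAPDH and ACTB, other count filters, fewer times, each replicate left out and, for ratios, a pseudocount of 1 and a normal test of the difference of edgeR slopes. The labels call the replicates biological.

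The genes and lists were chosen with earlier results of these data known. Named were the 8 steepest falls and 8 steepest rises past the threshold that moved that way in all replicates, the 6 highest mean counts, the 5 genes on each side of the count minimum, the 6 steepest ratio slopes each way, a list of often-studied antisense RNAs (1 of them is not reported here), their sense genes, and MYC, GAPDH and ACTB as checks. Other genes named with a slope, half-life or level ratio, among them PROSER2-AS1, WAC-AS1, TP73-AS1, TRAF3IP2-AS1 and ZBED5-AS1, were named after their values were seen. Positions and transcripts are those of GENCODE 44 (GRCh38), looked up by symbol and not from the counts' own build. Start windows come from RefSeq on GRCh38.p14.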

Additional observations from a re-analysis of the deposited data

How the results depend on the processing

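Counts of calls for the antisense-named genes moved most with the scaling. Scaled to GAPDH and ACTB, 70 genes fell and 0 rose (median slope −0.14), at 4 h 68 were lower and 2 higher, and at 1 h 2 were lower. With library totals 39 fell and 12 rose (median −0.040) and 12 were higher at 4 h. At 0, 1 and 2 h alone 10 fell and 3 rose (median −0.017), and at 1, 2 and 4 h alone 13 fell and 13 rose. A minimum of 30 counts gave a median slope of −0.019 and 0 genes lower at 1 h. DESeq2's Wald test called 0 lower and 2 higher at 1 h (edgeR 1 and 1, with 10 lower and 5 higher at an unadjusted p below 0.05), and the replicate block 5 and 5. Leaving out 1 replicate gave 17 to 21 falls, 14 to 18 rises and a median slope of −0.017 to −0.0067. At 4 h it gave 16 to 22 lower and 11 to 17 higher, and at 1 h 0 to 1 lower and 0 higher. Shares of all tested genes are not set beside the counts in this paragraph, so a count that moved need not be particular to the antisense-named genes.

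For the ratios, 13 to 20 fell and 17 to 23 rose without 1 replicate. At 1, 2 and 4 h 15 fell and 18 rose. With at least 30 counts in both genes 13 rose, but fewer pairs were tested there, with 6 of the 12 named pairs among them. With 0 and 4 h alone 0 passed either way, since 3 against 3 libraries cannot go below an exact p of 0.1 with 20 arrangements. The replicate block changed no call of the 12 named pairs, and among the named genes it added calls for THAP9-AS1 and GATA2-AS1.

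Named slopes that turned sign, none of them called on the other side except FGD5-AS1 and PAX8-AS1 with GAPDH and ACTB, were as follows. Scaled to GAPDH and ACTB, LRRC75A-AS1 had −0.026, FGD5-AS1 −0.12, PAX8-AS1 −0.084, TTN-AS1 −0.086, MSC-AS1 −0.12, ZFPM2-AS1 −0.037, ZSCAN16-AS1 −0.00083 and GATA2-AS1 −0.0069. With library totals FGD5-AS1 had −0.022 and MSC-AS1 −0.017. At 0, 1 and 2 h SVIL-AS1 had 0.025, ZNRD1-AS1 0.0072 and MSC-AS1 −0.0025, and at 1, 2 and 4 h THUMPD3-AS1 had 0.047 and TTN-AS1 −0.015. With 1 replicate left out in turn, PSMA3-AS1 ran from −0.063 to 0.0095, MSC-AS1 from −0.0047 to 0.042 and ZNRD1-AS1 from −0.044 to 0.025. With TMM scaling GAPDH and ACTB mRNA themselves had slopes of 0.15 and 0.12, so scaling to them lowers the slopes of all genes together. What lay behind the other changes was not tested. Of the named slopes and ratios under all alternatives, 413 values kept direction and side of the threshold and 18 turned sign. With the direction kept, 75 lost the call and 16 gained one. The 75 include 12 ratios at 0 and 4 h alone, where no pair could pass. At 10 to 30 mean counts, the precision limits slopes to those well above their SE.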
